A study of Mus musculus with 2 samples.

Results

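The genes described here are 7 Toll-like receptor genes (Tlr2, Tlr3, Tlr4, Tlr7, Tlr8, Tlr9 and Tlr13) and the 3 adaptor genes Myd88, Traf3 and Ticam1, 10 of the 32285 genes counted. They were chosen by name, as receptors and their adaptors, and all 10 had UMIs in each of the 4 libraries. Their levels were read in 6 groups of cell barcodes, called gates, which were set by other genes. The cDC gate (conventional dendritic cells) took barcodes with more than 0 UMIs of Flt3 and at least 10 of H2-Aa. The pDC gate (plasmacytoid dendritic cells) took at least 2 UMIs of Siglech, and the monocyte gate at least 5 of Lyz2 with 0 of C1qa. The C1q macrophage gate took at least 5 UMIs of C1qa and C1qb together, the B gate at least 1 each of Cd79a and Ms4a1, and the neutrophil gate at least 20 of S100a8 and S100a9 together.

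Toll-like receptors recognise parts of microbes. Tlr2 and Tlr4 act at the cell surface on bacterial lipoproteins and lipopolysaccharide, while Tlr3, Tlr7, Tlr8, Tlr9 and Tlr13 sit in endosomes and bind nucleic acids. MyD88 carries the signal of all of these receptors but Tlr3, which uses TRIF, the product of Ticam1; Tlr4 uses both. TRAF3 joins these complexes and leads to type I interferon, and it also holds back the noncanonical NF-kB pathway. PEP, the phosphatase encoded by Ptpn22, has been described to bind TRAF3 in myeloid cells, which is the reason to read these genes in mice with an altered Ptpn22.

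PEP-WT mice were C57BL/6 with the unaltered gene, and PEP-619WW mice carried, in both copies of Ptpn22, a knock-in that puts tryptophan in place of arginine. Mice of both groups were matched for age and sex and infected with LCMV-cl13, a persisting strain of lymphocytic choriomeningitis virus, and no uninfected mice entered these counts. Spleens were taken 8 days post infection (8 dpi), and spleen cells were pooled from 4 to 5 mice of a genotype, sorted for live CD45+ cells and measured by droplet 3′ single cell RNA sequencing, so each genotype is 1 pooled sample. The sample labels name liver, a human T cell line and tumor infiltrating cells, against their own protocol text, from which the spleen is taken here, so the tissue of each run is in doubt. A unique molecular identifier (UMI) marks 1 captured transcript. Each level below is a gene's UMIs per 1000000 UMIs of the gate (CPM) with an exact Poisson 95% interval, each share of barcodes has an exact binomial one, and each ratio between groups an exact conditional one. All of these cover counting error only. Since 3′ counting depends on the gene, levels were compared between gates and genotypes for each gene and not between genes. The knock-in is a point change, which these counts cannot show.

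The deposited files hold 2 runs per genotype, called run 1 and run 2, which were read apart. The cell numbers in the study's methods are the barcode counts of run 2, and how run 1 relates to it is not stated there. The 4 libraries held 8576 to 14821 barcodes, 55504449 to 77916082 UMIs and a median of 2832 to 4837 UMIs per barcode, and pairs of libraries shared 19 to 49 barcodes, at most 0.455% of the smaller library. Run 2 stood apart. Its PEP-WT library had 61.2% of its barcodes in the C1q macrophage gate, against 17.8% in the run 2 PEP-619WW library and 4.03 and 5.76% in run 1. That library also had 2 barcodes in the B gate and 5 in the pDC gate, and these gates were not compared in run 2. At least 3 of 6 melanocyte genes were found in 4.52 and 0.399% of run 2 barcodes and in 0% in run 1. The gates of run 1 overlapped: 65.3 and 62.5% of the cDC gate (PEP-WT and PEP-619WW) lay also in the B gate, and 55.1 and 53.7% of the neutrophil gate also in the monocyte gate, of which they made up 41.5 and 55.4%. The run 1 monocyte gate thus held more UMIs of the 8 neutrophil markers (45097 and 77230 CPM) than of the 6 monocyte markers (8270 and 7053 CPM), which goes against its name, while in run 2 it held 2411 and 1844 CPM against 3463 and 5689 CPM. The run 1 PEP-WT pDC gate held more UMIs of the neutrophil (6584 CPM), monocyte (6358 CPM) and erythroid (8140 CPM) markers than of the 7 pDC markers (5974 CPM). The run 1 C1q macrophage gate likewise held fewer UMIs of the 6 C1q macrophage markers (2754 and 3038 CPM) than of the monocyte (5375 and 5740 CPM), neutrophil (3587 and 3576 CPM) and 3 plasma cell (6440 and 6208 CPM) markers, so its values are those of barcodes with C1qa and C1qb UMIs. In the run 1 cDC gate the 7 B cell markers summed to 1466 and 1264 CPM and the 7 cDC markers to 3662 and 2180 CPM, against 0 and 46.0 CPM of B markers and 18167 and 15790 CPM of cDC markers in run 2. The run 1 PEP-619WW cDC gate also held more monocyte (3665 CPM) and plasma cell (5511 CPM) than cDC markers, and in PEP-WT these were at 2977 and 3626 CPM. In the neutrophil gate the granule gene Camp was at 3359 and 4410 CPM in run 1 and at 0.479 and 0.515 CPM in run 2, while the neutrophil receptor gene Csf3r was present in every library at 231 to 605 CPM. Values from barcodes that lay in 1 gate alone are therefore given beside many of the main results. Intervals of comparisons between gates take the gates as separate counts, so barcodes shared by both stand on both sides and are not allowed for.

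In the GENCODE annotation of the GRCm38 build (mm10), the build of the files, Tlr2 (ENSMUSG00000027995) lies on chromosome 3 from 83836272 to 83841767, Tlr4 (ENSMUSG00000039005) on chromosome 4 from 66827584 to 66930284, and Tlr3 (ENSMUSG00000031639) on chromosome 8 from 45395665 to 45411080. Tlr9 (ENSMUSG00000045322) and Myd88 (ENSMUSG00000032508) are both on chromosome 9, from 106222598 to 106226883 and from 119335934 to 119341411. A further 3 receptor genes are X-linked: Tlr13 (ENSMUSG00000033777) from 106143204 to 106160493, Tlr8 (ENSMUSG00000040522) from 167242696 to 167264329 and Tlr7 (ENSMUSG00000044583) from 167304929 to 167330558. Tlr8 and Tlr7 are neighbors on the same strand, 40599 bases apart. Traf3 (ENSMUSG00000021277) spans 111166370 to 111267153 on chromosome 12 and Ticam1 (ENSMUSG00000047123) spans 56269319 to 56276786 on chromosome 17.

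RefSeq sequence of the 250 bases before the transcription start (GRCm38.p6) was matched for 8 of the 10 genes. Tlr4 and Tlr7 had no entry. Letters were searched on both strands for AANNGAAA, the core that interferon regulatory factors bind, and for GAGGAA, the core bound by myeloid ETS factors such as PU.1. The first was in 3 of the 8 windows (Tlr2, Tlr3 and Myd88) and in 21.3% of 32851 promoters, and the second was in 4 of the 8 (Tlr8, Tlr9, Tlr13 and Ticam1) and in 23.3%. The Traf3 window held neither. A match is a description of the letters and no binding was measured. The 3 windows below belong to the adaptor with the largest difference between genotypes and to 2 receptor genes with unlike patterns over the gates, Tlr8 highest in the monocyte or C1q macrophage gate and Tlr9 with most of its run 1 UMIs in the B gate, each 5′ to 3′ on the strand of its gene, with the matches in capitals. The Myd88 window is chr9:119340019-119340268 (minus strand), inside the longer GENCODE span of the gene, the Tlr8 window chrX:167264330-167264579 (minus strand) and the Tlr9 window chr9:106222348-106222597 (plus strand).
Myd88: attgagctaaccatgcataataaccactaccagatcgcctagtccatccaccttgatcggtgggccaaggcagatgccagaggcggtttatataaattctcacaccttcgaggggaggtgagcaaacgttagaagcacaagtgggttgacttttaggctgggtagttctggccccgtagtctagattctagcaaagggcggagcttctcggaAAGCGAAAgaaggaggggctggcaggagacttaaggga
Tlr8: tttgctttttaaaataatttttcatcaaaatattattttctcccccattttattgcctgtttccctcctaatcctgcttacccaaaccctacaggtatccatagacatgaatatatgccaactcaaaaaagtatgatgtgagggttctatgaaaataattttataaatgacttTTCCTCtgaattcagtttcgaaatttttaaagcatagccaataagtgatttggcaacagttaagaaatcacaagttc
Tlr9: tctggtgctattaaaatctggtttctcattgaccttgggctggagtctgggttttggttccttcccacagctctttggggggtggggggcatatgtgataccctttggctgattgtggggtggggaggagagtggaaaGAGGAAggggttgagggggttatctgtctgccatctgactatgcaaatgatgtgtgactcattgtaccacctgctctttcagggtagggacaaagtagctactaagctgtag

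The surface receptor genes were highest in the myeloid gates: Tlr2 in the neutrophil and monocyte gates in all 4 libraries, and Tlr4 in the neutrophil, monocyte and C1q macrophage gates. Tlr2 in the neutrophil gate was at 45.7 CPM (interval 40.2 to 51.7) in run 1 PEP-WT, 28.5 (24.2 to 33.3) in run 1 PEP-619WW, 61.3 (51.2 to 72.9) in run 2 PEP-WT and 108 (97.8 to 119) in run 2 PEP-619WW. In the monocyte gate it was at 38.7, 30.3, 48.7 and 66.0 CPM in the same order of libraries. The log2 ratio of the monocyte to the neutrophil gate was -0.24 (-0.48 to 0.01), 0.09 (-0.22 to 0.41), -0.33 (-0.66 to -0.004) and -0.71 (-0.87 to -0.55). In barcodes of 1 gate alone the neutrophil gate was at 64.3, 26.2, 81.7 and 125 CPM and the monocyte gate at 38.1, 27.6, 47.2 and 63.9 CPM, so the neutrophil gate was higher in 3 of 4 libraries, with intervals apart. Tlr2 in the C1q macrophage gate was lower than in the neutrophil gate in all 4 libraries, with log2 ratios of -1.06 (-1.33 to -0.78), -0.86 (-1.21 to -0.52), -0.80 (-1.06 to -0.53) and -1.16 (-1.33 to -0.98). In the B gate it was at 4.81 and 4.60 CPM in run 1 and at 34.3 CPM in run 2 PEP-619WW, and in barcodes of the B gate alone at 2.68, 2.52 and 4.82 CPM. As a background, barcodes with T cell genes that lay in none of the 6 gates were at 1.62 and 0.940 CPM of Tlr2 in run 1, at a median depth of 4152 and 6622 UMIs, and at 6.67 CPM in run 2 PEP-619WW, above the 4.82 CPM of that library's B gate alone.

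Tlr4 was at 21.0, 15.7, 68.5 and 85.5 CPM in the neutrophil gate of run 1 PEP-WT, run 1 PEP-619WW, run 2 PEP-WT and run 2 PEP-619WW. In run 2 this was above every other gate, with the C1q macrophage gate at 36.6 and 40.7 CPM and the monocyte gate at 38.9 and 37.0 CPM. In run 1 no neighbors in order among the neutrophil, monocyte and C1q macrophage gates were separated by more than counting error. The PEP-WT neutrophil interval (17.4 to 25.2) lay above that of the C1q macrophage gate (11.8 to 16.8). The PEP-619WW intervals of these gates all overlapped. In the cDC gate Tlr4 was at 4.84, 6.41, 10.5 and 7.71 CPM. In barcodes of the cDC gate alone it was at 0 CPM in both PEP-WT libraries and at 4.07 and 3.42 CPM in the PEP-619WW libraries. Tlr2 and Tlr4 together made up 45.8 and 36.4% of the UMIs of the 7 receptor genes in the run 1 neutrophil gate and 59.7 and 55.8% in run 2. In the B gate their share was 18.4 and 19.9% in run 1 and 55.0% (46.9 to 62.9%) in run 2 PEP-619WW. The 2 runs thus differed in the B gate beyond counting error. In the pDC gate it was 31.7% (20.6 to 44.7%) in run 1 PEP-WT, 11.1% (0.281 to 48.2%, from 1 of 9 UMIs) in run 1 PEP-619WW and 16.4% (11.3 to 22.6%) in run 2 PEP-619WW, with intervals that overlap. The run 1 PEP-WT pDC gate is the one whose markers went against its name.

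**Figure D1:**
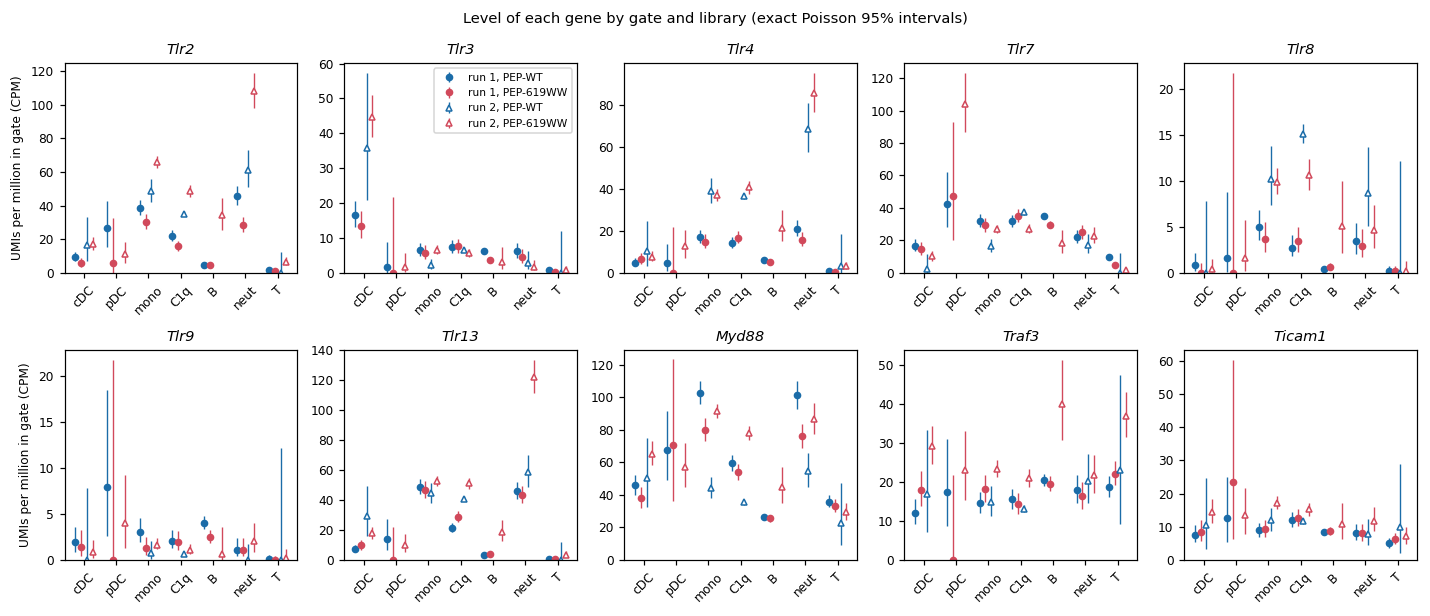
Level of each of the 10 genes (y axis, UMIs per 1000000 UMIs of the gate, CPM, from 0) in the 6 gates and the T cell background gate (x axis), with exact Poisson 95% intervals; filled circles are run 1, open triangles run 2, blue PEP-WT and red PEP-619WW, and gates with fewer than 20 barcodes are left out. Tlr2, Tlr4 and Tlr13 peak in the run 2 PEP-619WW neutrophil gate at 108, 85.5 and 122 CPM. Tlr3 peaks in the cDC gate and Tlr7 in the pDC gate at up to 104 CPM. Traf3 is at least as high in T cells as in the monocyte, C1q macrophage and neutrophil gates of each library. In run 2 PEP-619WW it is at 36.9 CPM in T cells and at 23.3 CPM or less in these gates.

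Tlr3, the endosomal receptor of double-stranded RNA, was highest in the cDC gate in all 4 libraries, at 16.6 CPM (13.2 to 20.7), 13.4 (9.86 to 17.7), 35.8 (20.8 to 57.3) and 44.6 (38.8 to 51.0). Each of these lay above the next gate by more than counting error. Within the cDC gate the signal sat in barcodes with a UMI of Xcr1 or Clec9a, genes that mark the cross-presenting cDC1 subset. In those it was at 67.1 CPM (52.4 to 84.6), 71.8 (50.8 to 98.6), 60.1 (33.6 to 99.1) and 113 (98.2 to 129), from 53, 28, 21 and 167 barcodes. The other barcodes of the gate held, in run 1, more UMIs of the B markers (1784 and 1423 CPM) than of the cDC markers (797 and 1037 CPM), which goes against the name of the gate, while in run 2 the cDC markers were at 12737 and 10591 CPM there. In these other barcodes Tlr3 was at 2.17, 3.27, 8.88 and 0.685 CPM, from 8, 10, 2 and 2 UMIs. The difference was larger than counting error in every library, with log2 ratios of 4.95 (3.90 to 6.22), 4.46 (3.43 to 5.63), 2.76 (0.65 to 5.93) and 7.37 (5.49 to 10.42). The share of barcodes with a Tlr3 UMI was 49.1, 35.7, 47.6 and 58.7% in the Xcr1 or Clec9a barcodes and 3.17, 6.08, 3.70 and 0.673% in the others. T cells had such a UMI in 0.469, 0.288, 0 and 0.348% of barcodes, and 0 of 32 barcodes with a UMI in run 2 PEP-WT allows, at 3 counts, a share of up to 9.38% of barcodes with a UMI. After every barcode was thinned to 1000 UMIs the shares were 11.3, 3.57, 9.52 and 10.8% against 0.455, 0.680, 0 and 0%. The shares of 3.57 and 9.52% come from groups of 28 and 21 barcodes. They rest on very few barcodes with a UMI and do not separate the groups in those libraries. The pDC gate held 1, 0 and 2 UMIs of Tlr3 in run 1 PEP-WT, run 1 PEP-619WW and run 2 PEP-619WW.

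**Figure D2:**
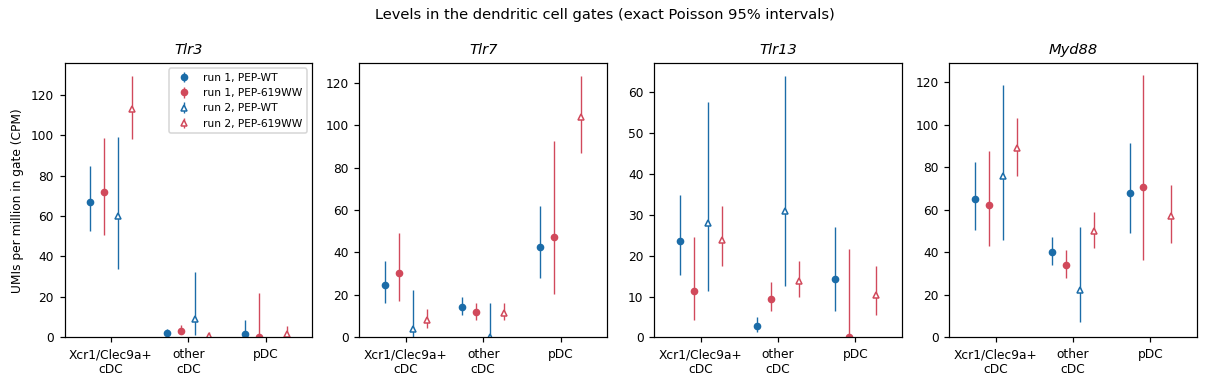
Levels of Tlr3, Tlr7, Tlr13 and Myd88 (y axis, CPM, from 0) in cDC barcodes with a UMI of Xcr1 or Clec9a, in the other cDC barcodes and in the pDC gate (x axis), with exact Poisson 95% intervals; filled circles are run 1, open triangles run 2, blue PEP-WT and red PEP-619WW, and gates with fewer than 20 barcodes are left out. Tlr3 is at 60.1 to 113 CPM in the first group and at or below 8.88 CPM in the others. Tlr7 is highest in the pDC gate, at 42.6 to 104 CPM. In run 1 this rests on 27 and 8 UMIs, against 24.6 and 30.2 CPM in the first group.

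Tlr7, the endosomal receptor of single-stranded RNA, followed another order. In the pDC gate it was at 42.6 CPM (28.1 to 62.0) in run 1 PEP-WT, 47.1 (20.3 to 92.7) in run 1 PEP-619WW and 104 (86.7 to 123) in run 2 PEP-619WW. The run 2 value was above every other gate of its library. In run 1 the pDC value was not separated from the B gate (34.9 and 29.7 CPM), the C1q macrophage gate (32.0 and 35.0 CPM) or the monocyte gate (31.8 and 29.4 CPM), and it rested on 27 and 8 UMIs. Of these, 4 and 5 lay in barcodes of the pDC gate alone, and 61.5 and 45% of the gate's barcodes also met another gate. Against the pDC gate the cDC gate was lower in these 3 libraries, with log2 ratios of -1.36 (-2.01 to -0.67), -1.70 (-2.78 to -0.41) and -3.34 (-3.85 to -2.86). In run 2 PEP-619WW the cDC level of Tlr7 was 10.2 CPM over the whole gate and 1.03 CPM in barcodes of the cDC gate alone, so most of these UMIs came from barcodes that also met another gate. T cells were at 9.72 and 4.80 CPM of Tlr7 in run 1 and at 1.56 CPM in run 2 PEP-619WW.

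Tlr8 and Tlr9 rested on few UMIs in run 1, 75 and 62 in the whole libraries for Tlr8 and 192 and 79 for Tlr9. Tlr8, the X-linked neighbor of Tlr7, was at 2.75 CPM (1.78 to 4.06) and 3.43 (2.28 to 4.95) in the C1q macrophage gate of run 1. In run 2 it was at 15.1 CPM (14.1 to 16.2) and 10.6 (9.05 to 12.3) there. The monocyte gate held it at 4.97, 3.65, 10.2 and 9.88 CPM, and in the B gate of run 1 it was at 0.394 and 0.604 CPM. In the B gate of run 2 PEP-619WW it was at 5.08 CPM from 8 UMIs, 0 of which lay in barcodes of the B gate alone. The cDC gate held 0 to 4 UMIs of Tlr8 per library. Tlr9, the receptor of unmethylated CpG DNA, was at 4.02 CPM (3.39 to 4.74) and 2.51 (1.88 to 3.27) in the run 1 B gate, where 2.05 and 1.69% of barcodes had a UMI. T cells of run 1 had it in 0.0587% of barcodes in PEP-WT and in 0 of 1041 in PEP-619WW, which allows, at 3 counts, a share of up to 0.288% of barcodes with a UMI. The run 1 PEP-WT pDC gate was at 7.90 CPM of Tlr9 from 5 UMIs (2.56 to 18.4), which was not separable from the B gate. In run 2 PEP-619WW Tlr9 was lowest in the B gate, at 0.635 CPM from 1 UMI, and highest in the pDC gate, at 3.96 CPM from 5 UMIs (1.28 to 9.24). None of the 5 UMIs of run 1 PEP-WT lay in a barcode of the pDC gate alone.

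Tlr13, which recognises bacterial ribosomal RNA in mice, was distributed like the surface receptors rather than like Tlr7. In the neutrophil gate it was at 46.2 CPM (40.7 to 52.3), 43.5 (38.1 to 49.4), 58.9 (49.0 to 70.3) and 122 (111 to 133). The monocyte gate was at 48.8, 46.7, 44.4 and 52.6 CPM, not separable from the neutrophil gate in run 1 and lower in run 2, with log2 ratios of -0.41 (-0.74 to -0.07) and -1.21 (-1.37 to -1.05). In barcodes of 1 gate alone the neutrophil gate was at 67.5, 58.9, 98.3 and 154 CPM and the monocyte gate at 58.2, 46.1, 45.1 and 49.1 CPM. The C1q macrophage gate was below the neutrophil gate in all 4 libraries, with log2 ratios of -1.12 (-1.40 to -0.85), -0.61 (-0.87 to -0.34), -0.53 (-0.79 to -0.26) and -1.25 (-1.42 to -1.09). In run 1 the B gate was at 3.04 and 3.62 CPM of Tlr13, and at 0.651 and 0.452 CPM in barcodes of that gate alone. In run 2 PEP-619WW it was at 18.4 CPM (12.3 to 26.4) there, and at 4.82 CPM from 4 UMIs in barcodes of that gate alone.

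Myd88 differed between gates by more than counting error. In run 1 it was at 103 CPM (95.8 to 110) and 80.1 (73.2 to 87.4) in the monocyte gate and at 101 and 76.0 CPM in the neutrophil gate. These intervals overlapped, but the gates shared many barcodes, which brings their levels together. The monocyte gate alone was at 120 and 83.7 CPM and the neutrophil gate alone at 134 and 81.7 CPM. Over whole gates the pDC and C1q macrophage gates followed, at 67.9 and 70.6 CPM and at 59.6 and 54.0 CPM, and the cDC gate was at 45.9 and 38.2 CPM. In barcodes of 1 gate alone the cDC gate was at 65.3 and 50.9 CPM, from 33 and 25 UMIs. The C1q macrophage gate was at 62.4 and 54.6 CPM there, so the cDC gate was above it in PEP-WT and below it in PEP-619WW. The B gate was lowest, at 26.1 and 25.5 CPM, and the monocyte gate exceeded it by log2 ratios of 1.97 (1.84 to 2.11) and 1.65 (1.47 to 1.83). T cells were at 35.9 and 33.3 CPM. In run 2 PEP-WT the neutrophil, cDC and monocyte gates were not separated, at 54.6, 50.5 and 44.2 CPM, while run 2 PEP-619WW had 91.7 CPM in the monocyte and 86.6 CPM in the neutrophil gate.

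Traf3 and Ticam1 were spread over nearly all gates. Traf3 in run 1 was at 20.5 and 19.4 CPM in the B gate, 14.5 and 18.1 in the monocyte gate, 15.5 and 14.2 in the C1q macrophage gate and 17.9 and 16.3 in the neutrophil gate, and no gate was separated from the next in order. Some gates further apart were. The PEP-WT B interval lay above those of the C1q macrophage (up to 18.3), monocyte (up to 17.4) and cDC (up to 15.5) gates. In PEP-619WW the B interval (17.6 to 21.4) lay above that of the C1q macrophage gate only. In run 2 PEP-619WW the B interval (30.7 to 51.2) lay above the monocyte (up to 25.6), neutrophil (up to 26.8) and C1q macrophage (up to 23.4) intervals. It overlapped those of the cDC and pDC gates. T cells were at 18.6 CPM (16.1 to 21.4), 22.0 (19.2 to 25.2), 23.0 (9.24 to 47.4) and 36.9 (31.5 to 42.9) in the 4 libraries. The log2 ratio of the monocyte gate to T cells was -0.36 (-0.70 to -0.02), -0.28 (-0.62 to 0.05), -0.64 (-1.77 to 0.73) and -0.66 (-0.92 to -0.40), so Traf3 was lower in the monocyte gate than in T cells beyond counting error in run 1 PEP-WT and run 2 PEP-619WW. Ticam1 was at 8.91, 9.21, 11.9 and 17.2 CPM in the monocyte gate. In T cells it was at 4.95, 6.37, 9.85 and 7.11 CPM, and the monocyte gate was above them beyond counting error in run 1 PEP-WT and run 2 PEP-619WW, with log2 ratios of 0.85 (0.31 to 1.39) and 1.27 (0.75 to 1.85).

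The same level can come from a library with few or many cells of a type, and the gate that held most UMIs of a gene was the gate of its highest level in some libraries and not in others. In run 1, barcodes of the B gate alone held 50.5 and 39.3% of all Tlr7 UMIs and 65.6 and 60.8% of all Tlr9 UMIs, whereas barcodes of the cDC gate alone held 5.53 and 9.09% of Tlr3. The whole B gate held 35572972 of 77916082 and 21521417 of 56745578 UMIs of these libraries, and the whole cDC gate held 4750488 and 3589427. Whole gates, here and below, include barcodes that also met another gate. Their totals are thus upper limits for barcodes of a gate alone and not a like measure. In run 2 PEP-WT, barcodes of the C1q macrophage gate alone held most UMIs of every gene. The shares ran from 75.9% of Traf3 to 89.2% of Tlr7, with 88.6% of Tlr8 and 85.3% of Tlr3. The whole gate held 58262105 of the 70500076 UMIs of that library, so most UMIs of all genes together lay there too. In run 2 PEP-619WW the monocyte gate alone held 43.8% of Tlr8 and 35.8% of Tlr7, and the cDC gate alone 34.6% of Tlr3. The whole monocyte gate held 19123361 and the whole cDC gate 4799398 of the 55504449 UMIs of that library.

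**Figure D3:**
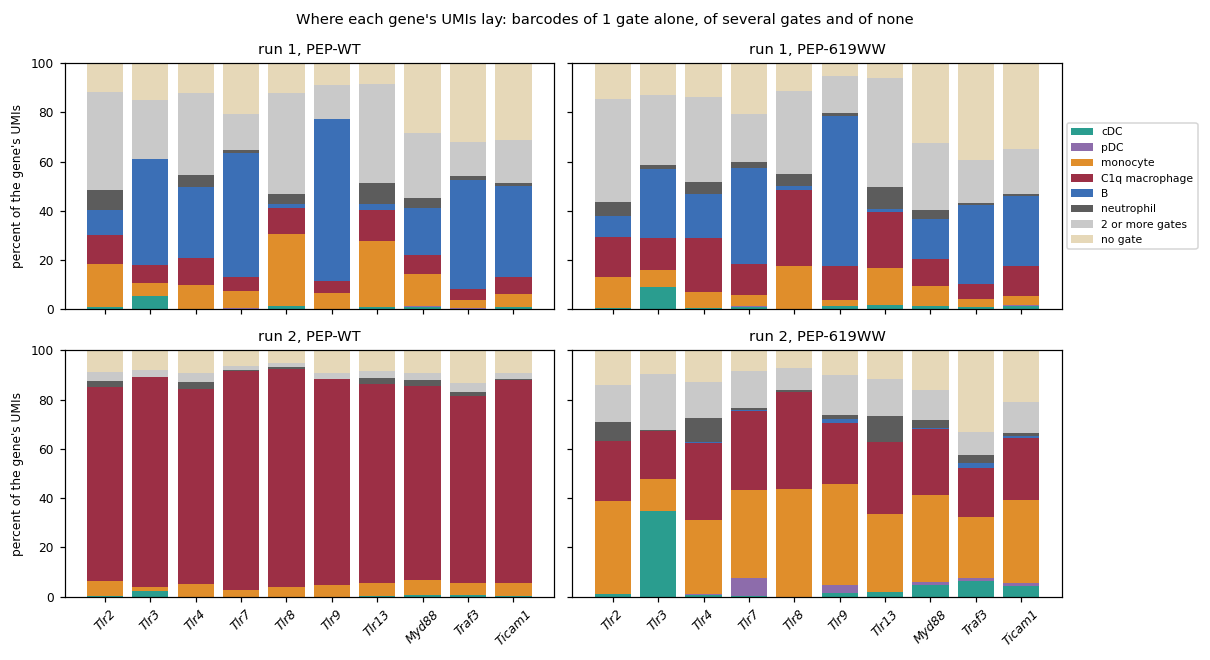
Percent of each gene's UMIs in a library (y axis, 0 to 100%) that lay in barcodes of 1 gate alone, of 2 or more gates (grey) or of no gate (beige), for the 10 genes (x axis) in the 4 libraries. B gate barcodes (blue) hold 65.6 and 60.8% of Tlr9 in run 1. C1q macrophage barcodes (dark red) hold most UMIs of every gene in run 2 PEP-WT, where the whole gate, with its shared barcodes, held 58262105 of all 70500076 UMIs.

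The comparison of PEP-619WW with PEP-WT asks whether the altered phosphatase came with other levels of the receptors and adaptors at 8 dpi. A gene was compared in a gate when it had at least 30 UMIs over both genotypes and each gate at least 20 barcodes, and was counted when its CPM ratio was past 1.5-fold. Each genotype was 1 pooled sample, so no replicate error exists, no test between genotypes was run, and a ratio compares these libraries. In run 1, 48 of 60 pairs of a gene and a gate could be compared. No pair was past 1.5-fold higher in PEP-619WW and 5 were past 1.5-fold lower, with 17 ratios above and 31 below equality. Scaling by the median of gene ratios in each gate changed this split to 1 higher and 4 lower, and totals without immunoglobulin, hemoglobin, mitochondrial and ribosomal genes changed it to 1 higher and 5 lower. In run 2, 14 of 36 pairs were higher and 2 were lower, and by median scaling 8 were higher and 4 lower.

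These counts were read against all genes of the same gate. In run 1 the cDC gate had 0 of 8 genes higher and 1 lower, where 6.57 and 7.65% of all genes compared were higher and lower. The pDC gate had 0 of 2 in either direction, against 12.8 and 19.3%. In the monocyte gate 0 of 10 were higher and 1 lower, against 5.03 and 8.69%, and in the C1q macrophage gate 0 of 10 in either direction, against 5.19 and 6.66%. In the B gate 0 of 9 were higher and 2 lower, against 6.6 and 4.78%, and in the neutrophil gate 0 of 9 and 1, against 4.86 and 10.9%. In run 2 the background was far wider and shifted up. The cDC gate had 2 of 8 higher and 1 lower against 35.7 and 5.7%, the monocyte gate 5 of 10 and 0 against 25.8 and 7.05%, the C1q macrophage gate 3 of 10 and 0 against 19.9 and 14.1%, and the neutrophil gate 4 of 8 and 1 against 27.9 and 12.3%. The median log2 ratio of all genes was 0.31, 0.24, 0.11 and 0.22 in these 4 gates of run 2 and between -0.11 and 0.02 in run 1. Set against these medians, 8 of the 36 pairs of run 2 were past 1.5-fold above and 4 below. The share of all genes past 1.5-fold of these medians was not counted in either run. The counts by median scaling thus have no background, and the shares above are not one for them.

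Myd88 differed in opposite directions in the runs. In run 1 it was lower in PEP-619WW in the monocyte gate, at 80.1 against 103 CPM (log2 ratio -0.36, interval -0.52 to -0.20), and in the neutrophil gate, at 76.0 against 101 CPM (-0.42, -0.60 to -0.23). In the C1q macrophage and B gates of run 1 the ratios were -0.14 (-0.33 to 0.04) and -0.04 (-0.19 to 0.12). None of these was past 1.5-fold. In barcodes of 1 gate alone the run 1 monocyte ratio was -0.52 (-0.79 to -0.26), within 1.5-fold. The run 1 neutrophil ratio was -0.71 (-1.15 to -0.29) there, which is past 1.5-fold lower. In run 2 Myd88 was past 1.5-fold higher in PEP-619WW in the C1q macrophage gate, at 78.1 CPM (73.8 to 82.6) against 35.6 (34.1 to 37.1), a log2 ratio of 1.13 (1.03 to 1.24). The markers of that gate moved too, with the 6 monocyte markers at 4137 against 1220 CPM and the 6 C1q macrophage markers at 5360 against 8163 CPM, and their part in the ratio was not tested. Myd88 was also higher in the monocyte gate, at 91.7 against 44.2 CPM (1.05, 0.83 to 1.28), and in the neutrophil gate, at 86.6 against 54.6 CPM (0.66, 0.35 to 0.98). In the run 2 monocyte gate the C1q macrophage markers were at 257 against 631 CPM, the melanocyte markers at 45.8 against 378 and the T markers at 226 against 24.0 CPM. Their part in the run 2 monocyte ratios of any gene here was not tested. In barcodes of 1 gate alone the Myd88 ratio was 1.12 in the C1q macrophage and 0.97 in the monocyte gate. The neutrophil ratio was 0.10 in barcodes of that gate alone and 0.44 against the median of all genes, each of which ended that call. At 1000 UMIs per barcode the share of C1q macrophage barcodes with a Myd88 UMI was 3.40% (2.95 to 3.91%) in run 2 PEP-WT and 7.69% (6.54 to 8.97%) in run 2 PEP-619WW, and in run 1 it was 8.41 and 7.84%.

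Tlr2 also differed in direction between the runs. It was below equality in all 5 run 1 gates compared and above it in the 4 of run 2, of which the cDC ratio of 0.02 became -0.29 against the median of all genes. In the neutrophil gate it was past 1.5-fold lower in PEP-619WW in run 1, at 28.5 against 45.7 CPM (log2 ratio -0.68, -0.98 to -0.39), and past 1.5-fold higher in run 2, at 108 against 61.3 CPM (0.82, 0.53 to 1.11). In barcodes of the neutrophil gate alone these ratios were -1.30 and 0.61. Against the median of all genes they were -0.57, which ended the run 1 call, and 0.60. Markers of the run 1 neutrophil gate moved too, with the neutrophil markers at 109012 against 83291 CPM. The cDC markers were at 1157 against 2155 CPM, the erythroid markers at 901 against 1947 and the C1q macrophage markers at 627 against 619 CPM. Their part in the run 1 Tlr2 and Myd88 ratios of that gate was not tested. In the run 1 cDC gate Tlr2 was at 5.57 against 9.47 CPM, a log2 ratio of -0.77 whose interval of -1.60 to 0.02 includes equality, and with every barcode weighted equally it was -0.17, which ended the call. After every barcode was thinned this ratio changed sign, as given at the end. The neutrophil markers of the run 1 cDC gate were at 572 against 2490 CPM and the erythroid markers at 67.4 against 1215 CPM. Their part in the run 1 ratios of that gate was not tested. Split by subset, Tlr2 in that gate was at 5 against 31 UMIs in Xcr1 or Clec9a barcodes (-1.63, -3.35 to -0.26) and at 15 against 14 in the other cDC barcodes (0.37, -0.78 to 1.53), and Tlr13 at 6 against 25 UMIs (-1.06, -2.63 to 0.26) and at 29 against 10 (1.81, 0.73 to 3.01). Tlr4 was within 1.5-fold in all 5 run 1 and all 4 run 2 gates compared, and past it against the median of all genes in the run 2 cDC gate, at -0.76.

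Of the endosomal receptors, Tlr3 and Tlr9 were lower in the PEP-619WW B gate of run 1. Tlr3 was at 3.67 against 6.13 CPM (log2 ratio -0.74, -1.13 to -0.36), and Tlr9 at 2.51 against 4.02 CPM (-0.68, -1.16 to -0.22). In barcodes of the B gate alone Tlr3 stayed past 1.5-fold at -0.71, and Tlr9 at -0.56 did not. The markers of that gate moved too: the 7 B markers were at 3346 against 4063 CPM, the plasma cell markers at 5593 against 3675, the neutrophil markers at 3087 against 1445 and the erythroid markers at 321 against 2419 CPM, and their part in these ratios was not tested. In PEP-619WW the plasma cell markers were thus above the B markers, which goes against the name of the gate. Tlr9 was also lower in the run 1 monocyte gate, from 8 against 24 UMIs (-1.27, -2.63 to -0.06). In barcodes of that gate alone it was at 2 against 13 UMIs (-1.98, -5.17 to 0.16). This is under the minimum of 30 UMIs, and the interval includes equality. Tlr7 in the B gate was at 29.7 against 34.9 CPM (-0.23, -0.37 to -0.09), a difference past counting error and within 1.5-fold. In Xcr1 or Clec9a cDC barcodes, where Tlr3 was highest, its ratio was 0.10 (-0.51 to 0.69) in run 1 and 0.91 (0.16 to 1.77) in run 2, from 15 UMIs in 21 run 2 PEP-WT barcodes.

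In run 2 the receptors differed among gates of 1 library pair. Tlr13 in the neutrophil gate was at 122 against 58.9 CPM, a log2 ratio of 1.05 (0.76 to 1.35), and was within 1.5-fold in the monocyte and C1q macrophage gates at 0.24 and 0.32. In barcodes of the neutrophil gate alone the Tlr13 ratio was 0.65 (0.28 to 1.04). The other markers of the run 2 neutrophil gate moved between genotypes as well, with the 6 C1q macrophage markers at 935 against 4494 CPM and the 6 monocyte markers at 2997 against 1755 CPM, and their part in the Tlr13, Tlr2 and Myd88 ratios of that gate was not tested. Tlr7 was past 1.5-fold higher in the monocyte gate, at 27.1 against 16.6 CPM (0.70, 0.34 to 1.09), a call that ended against the median of all genes at 0.46, and lower within 1.5-fold in the C1q macrophage gate, at 27.2 against 37.5 CPM (-0.46, -0.61 to -0.31). Tlr8 was likewise lower within 1.5-fold in the C1q macrophage gate, at 10.6 against 15.1 CPM (-0.51, -0.76 to -0.27), and past it against the median of all genes at -0.62. Tlr3 in the run 2 monocyte gate was at 6.59 against 2.14 CPM (1.62, 0.65 to 2.79), from 9 UMIs in PEP-WT. Its ratio in barcodes of the monocyte gate alone was 0.66, from 50 against 7 UMIs, with an interval of -0.49 to 2.04 that includes equality. Tlr9 was past 1.5-fold higher in the monocyte gate (1.23, -0.44 to 3.58) and in the C1q macrophage gate (0.75, -0.17 to 1.62), from 3 and 37 PEP-WT UMIs, and both intervals include equality. The largest ratio, Tlr7 in the cDC gate at 2.28 (-0.27 to 7.61), rested on 1 PEP-WT UMI. Tlr8 in the neutrophil gate (-0.90, -1.92 to 0.13) and Tlr13 in the cDC gate (-0.73, -1.56 to 0.20) were the 2 pairs past 1.5-fold lower, and both intervals include equality.

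Traf3, the adaptor that PEP has been described to bind, was within 1.5-fold in all 5 gates of run 1 in which it was compared. Its largest ratio there was in the cDC gate, at 17.8 against 12 CPM (log2 ratio 0.57, 0.03 to 1.11). That gate shared most of its barcodes with the B gate. In barcodes of the cDC gate alone the ratio was 2.21 (-0.06 to 5.46), from 9 against 2 UMIs. This is under the minimum of UMIs set for a comparison, and the interval includes equality. Over the whole cDC gate the ratio against the median of all genes was 0.62, past 1.5-fold. In the monocyte, C1q macrophage, B and neutrophil gates the ratios were 0.32 (-0.07 to 0.71), -0.13 (-0.49 to 0.24), -0.08 (-0.25 to 0.10) and -0.14 (-0.57 to 0.28). In run 2 Traf3 was past 1.5-fold higher in PEP-619WW in the C1q macrophage gate, at 21.0 against 13.2 CPM (0.67, 0.48 to 0.86), and in the monocyte gate, at 23.3 against 14.7 CPM (0.66, 0.28 to 1.07). At 1000 UMIs per barcode those ratios were 0.18 and 0.05, and with every barcode weighted equally 0.38 and 0.55, so that both calls ended under either setting. Against the median of all genes the calls ended too, at 0.57 and 0.42. In barcodes of 1 gate alone both calls stayed, at 0.69 (0.48 to 0.89) and 0.74 (0.30 to 1.21). In the run 2 cDC gate Traf3 was also past 1.5-fold higher, at 0.79 with an interval of -0.23 to 2.03 from 8 PEP-WT UMIs and 0.48 against the median of all genes, and the neutrophil ratio was 0.10 (-0.45 to 0.67). Ticam1 was between -0.02 and 0.14 in the 5 gates of run 1, and between 0.37 and 0.63 in the 4 gates of run 2, where 1 gate, the neutrophil gate, was past 1.5-fold at 0.63 (-0.22 to 1.55). That call ended in barcodes of 1 gate only, at 0.18, and against the median of all genes, at 0.41.

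**Figure D4:**
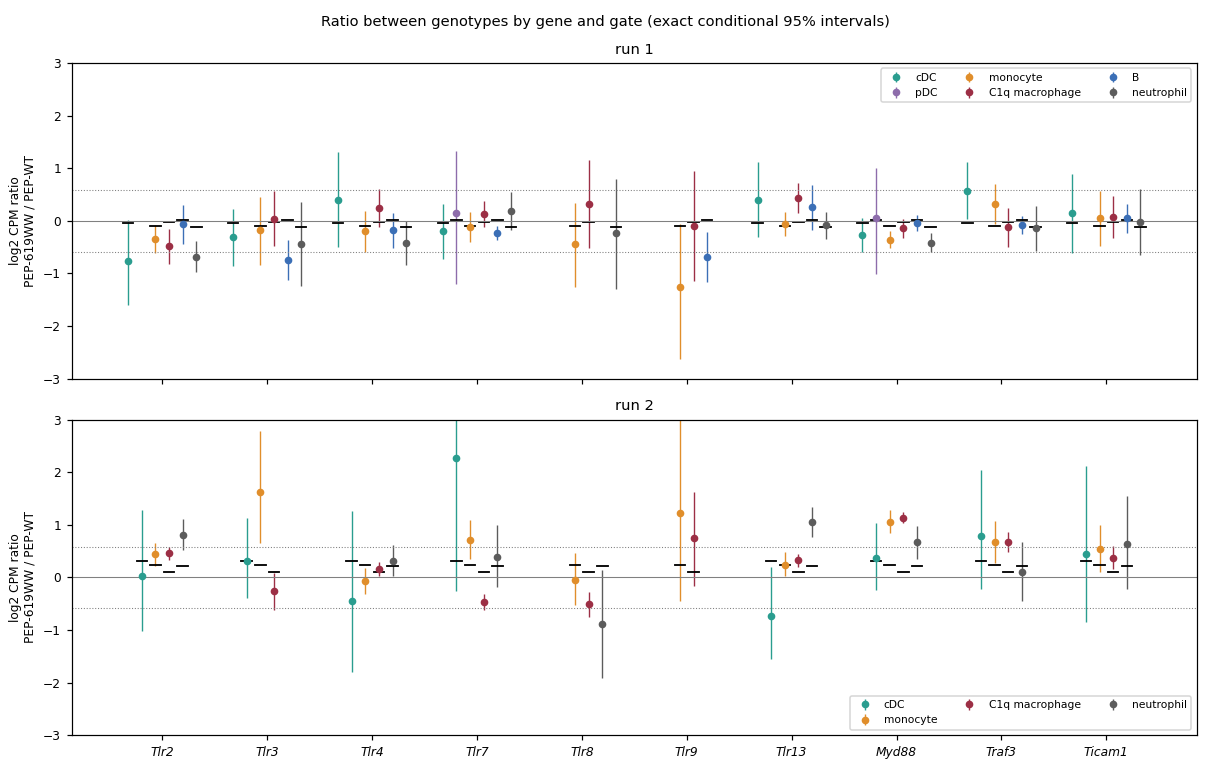
Log2 ratio of CPM, PEP-619WW over PEP-WT (y axis, limited to -3 to 3, so that 2 intervals run past the top), for each gene (x axis) and gate (colors) with at least 30 UMIs, in run 1 (top) and run 2 (bottom), with exact conditional 95% intervals; short black lines are the median of all genes in that gate and dotted lines are 1.5-fold. Run 1 has 0 ratios above the upper and 5 below the lower dotted line, and run 2 has 14 and 2, with Myd88 at 1.13 in the C1q macrophage gate.

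Other genes of the pathway were read from a list of 63. In run 1, 322 of 378 pairs of a gene and a gate could be compared, of which 11 were past 1.5-fold higher and 49 lower in PEP-619WW. In run 2 it was 100 higher and 17 lower of 226. No gene with at least 100 UMIs in both runs was past 1.5-fold in the same direction in both runs of any gate. These counts pool gates in which, over all genes, 4.86 to 12.8% were higher and 4.78 to 19.3% lower in run 1, and 19.9 to 35.7% higher and 5.7 to 14.1% lower in run 2. Among transcription factors, 0 of 41 pairs were higher and 11 lower in run 1, and 15 of 28 were higher and 0 lower in run 2. Irf7, the factor that endosomal receptors use to induce interferon, was past 1.5-fold lower in all 6 gates of run 1, with log2 ratios of -1.28 to -0.82, and was at 230 against 560 CPM in the monocyte gate. In run 2 Irf7 was above equality in all 4 gates, at 0.32 to 2.09, and past 1.5-fold in 3. Its level in the run 2 C1q macrophage gate was 130 against 30.6 CPM. Irf8, a factor of dendritic cell and monocyte development, was below equality in 5 of 6 gates of run 1, at -0.60 to 0.36 and past 1.5-fold lower in 3, and was at 0.02 to 0.71 in the 4 gates of run 2, past 1.5-fold higher in 1.

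For Traf3 partners and the noncanonical NF-kB genes, 3 of 51 pairs were higher and 14 lower in run 1, and 25 of 34 were higher and 0 lower in run 2. Over all genes, 4.86 to 12.8% were higher and 4.78 to 19.3% lower in the gates of run 1. The gates of run 2 had 19.9 to 35.7% higher and 5.7 to 14.1% lower. These shares are also the background of the groups that follow. Nfkb2, whose product is processed once TRAF3 is degraded, was lower in all 6 gates of run 1, at -0.92 to -0.62, and past 1.5-fold higher in 3 of 4 gates of run 2. It was named after its values were seen. Birc3, a ubiquitin ligase of the TRAF3 complex, was within 1.5-fold in the monocyte gate of run 1 at -0.08 (-0.29 to 0.12) and was at 1.44 (1.11 to 1.79) in run 2. Traf3ip3, which binds TRAF3, was at 0.19 (-0.01 to 0.40) in run 1 and 2.13 (1.5 to 2.84) in run 2 in the same gate. Adaptors and kinases had 1 of 95 pairs higher and 5 lower in run 1, and 32 of 69 higher and 1 lower in run 2.

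Among co-receptors and trafficking genes, 5 of 57 pairs were higher and 1 lower in run 1, and 4 of 40 were higher and 10 lower in run 2. Unc93b1, the chaperone that brings endosomal receptors to their compartment, was within 1.5-fold in all 6 gates of run 1, at -0.28 to -0.01, and past it in 1 of 4 gates of run 2. Hsp90b1, the chaperone of Toll-like receptor folding and the gene of this group with the highest level in the run 1 monocyte gate, was above equality in 5 of 6 gates of run 1, at -0.55 to 0.59 over the 6 gates and past 1.5-fold in 1, and below it in 3 of 4 gates of run 2. Inhibitors had 0 of 34 pairs higher and 6 lower in run 1 and 10 of 23 higher and 1 lower in run 2. The cytokine genes had 1 of 25 higher and 10 lower in run 1 and 10 of 21 higher and 4 lower in run 2, and the other Toll-like receptor genes 1 of 19 and 2 in run 1 and 4 of 11 and 1 in run 2.

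The genes whose levels over the 12 gate and genotype points of run 1 were most like each member were ranked among 9487 genes by Pearson r of log2(CPM + 1), as a description, since the points share libraries and barcodes. Tlr13 was nearest to Pstpip2 (r = 0.997), a neutrophil and macrophage gene, and Tlr2 to Spi1 (0.982), which encodes PU.1. Myd88 was nearest to St3gal4 (0.996) and Rab7 (0.990), Tlr4 to Il15ra (0.977) and Tlr8 to Sat1 (0.975). Traf3 was nearest to Tti1 (0.990), Tlr3 to Thop1 (0.976) and Ticam1 to Tex264 (0.965). The weakest best matches were those of Tlr9 with Borcs5 (0.925) and Tlr7 with Nhlrc3 (0.906). The points include the run 1 PEP-619WW pDC gate of 20 barcodes. Tlr3, Tlr4, Tlr8, Tlr9, Tlr13 and Traf3 had 0 UMIs there, with an upper limit of 21.7 CPM. For Traf3 this limit lay above every other point, of which the highest was at 20.5 CPM. How far the r values of these genes rest on that point was not tested.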

How the data were processed

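Cells of 1 pool per genotype, splenocytes per the protocol text, were counted by droplet 3′ single cell RNA sequencing. The authors deposited raw UMI counts per gene and barcode, not normalized, made with Cell Ranger (6.0.0 in the submitters' processing notes) on mm10, as 2 runs per sample. Of 32285 gene identifiers, 32158 matched a symbol. All deposited barcodes were kept, and doublets were not removed. The labels gave the genotypes. The members, gates and gene lists were chosen with earlier results of these data known, and the minimum of 20 barcodes was set after the gate sizes were seen. All members were named. Pathway genes were to be named where run 1 and run 2 were both past 1.5-fold one way at a minimum of 100 UMIs, which held for none, or by the highest levels in a group described. For each gate, library and gene, counts were summed and set per 1000000 UMIs of the gate, with exact 95% intervals. A gene was called past 1.5-fold with at least 30 UMIs. Shares were also read after thinning each barcode to 1000 UMIs. The calculation of ratios was checked on simulated counts. Of 10 alternatives planned and 1 added, the effects are given at the end. Counts were read with pandas 2.3.3, intervals computed with scipy 1.17.1 and numpy 2.4.6 under python 3.11.15, and plots drawn with matplotlib 3.10.9. Reads were not analysed here.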

Additional observations from a re-analysis of the deposited data

Results flagged for a closer look

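The ratio of PEP-619WW over PEP-WT pointed in opposite directions beyond counting error in both runs, or in both of a pair of gates, for 7 comparisons, each with 1 pooled sample per genotype, so that the difference was not tested. How many of all genes did so was not counted. The median log2 ratio of all genes was -0.10 and 0.24 in the monocyte gate of run 1 and run 2. It was -0.11 and 0.22 in the neutrophil gate. The Tlr2 monocyte and Tlr4 neutrophil intervals of both runs include these medians. For Myd88 the log2 ratio was -0.36 in the monocyte gate of run 1 and 1.05 in run 2, a difference of -1.41, and in the neutrophil gate -0.42 and 0.66, a difference of -1.08. In barcodes of the neutrophil gate alone the run 2 ratio of Myd88 was 0.10 (-0.37 to 0.58), within counting error. The run 1 ratio there was -0.71 (-1.15 to -0.29), beyond it. For Tlr2 it was -0.68 and 0.82 in the neutrophil gate, a difference of -1.5. In the C1q macrophage gate Tlr2 was at -0.49 and 0.46 (difference -0.95) and in the monocyte gate at -0.35 and 0.44 (difference -0.79). In barcodes of 1 gate alone the run 1 ratios of Tlr2 were -0.43 (-0.90 to 0.04) and -0.47 (-0.95 to 0.003) in these gates, both within counting error. Tlr4 in the neutrophil gate was at -0.42 and 0.32 (difference -0.74), but in barcodes of that gate alone at -0.56 (-1.54 to 0.39) and 0.16 (-0.24 to 0.57), where neither was beyond counting error. Within run 2, Tlr7 was at 0.70 in the monocyte gate and -0.46 in the C1q macrophage gate, a difference of 1.16.
The runs also differed in the makeup of their libraries. The share of barcodes in the C1q macrophage gate was 61.2% in run 2 PEP-WT and 17.8% in run 2 PEP-619WW, and barcodes with melanocyte genes were 4.52 and 0.399% there. The part of these in the differences was not tested, and genotype and library cannot be told apart in either run.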

How the results depend on the processing

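No paired analysis was possible because each genotype has 1 sample. In run 1 the count of pairs past 1.5-fold higher in PEP-619WW was 0, and became 1 at 1000 UMIs per barcode, 1 with totals without immunoglobulin, hemoglobin, mitochondrial and ribosomal genes, 1 with median-of-ratios scaling, 2 at a minimum of 10 UMIs, 3 with barcodes weighted equally and 3 without barcodes holding lymphocyte genes, the setting added after the data were seen. The run 1 count lower, 5, was 3 at a minimum of 100 UMIs and 10 with barcodes weighted equally. The run 2 count higher, 14, was 8 with median-of-ratios scaling. The run 2 count lower, 2, was 1 in barcodes of 1 gate only, 0 at a minimum of 100 UMIs, 4 with median-of-ratios scaling and 1 with doubled gate thresholds. Scaling by the median shifts every gene of a gate alike. Tlr2 in the run 1 cDC gate turned from -0.77 to 2.23 at 1000 UMIs per barcode, from 4 UMIs, and no other ratio past 1.5-fold changed sign under the 9 settings that recompute ratios. The settings moved levels more often than ratios. Levels fell outside their intervals in 122 of 168 cases with totals without immunoglobulin, hemoglobin, mitochondrial and ribosomal genes, 109 of 168 at 1000 UMIs per barcode, 76 of 168 with barcodes weighted equally, 56 of 164 in barcodes of 1 gate only, 55 of 164 without barcodes holding lymphocyte genes and 12 of 148 with doubled gate thresholds. Ratios fell outside theirs in 0 of 84, 32 of 73, 10 of 84, 12 of 78, 10 of 82 and 3 of 74 cases in the same order. For the other counts the cause was not tested. Depth limits Tlr9, Tlr8 in run 1 and the pDC gate.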
